A study of Mus musculus with 16 samples.

Results

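The circadian clock and clock-output genes described here were 10 genes, chosen by name from the array annotation out of 27745 gene names on the array: the activators Arntl and Clock, the repressors Per1, Per2 and Cry2, the nuclear receptors Nr1d1 and Nr1d2, and the PAR bZIP output factors Dbp, Tef and Hlf. They were measured in the gastrocnemius, a muscle of the calf, of 16 adult male C57BL/6N mice that were 3 months old when the diets began. For 8 weeks all mice ate a high-fat diet made with corn oil (cHF) that held 10 mg/kg of rosiglitazone (ROSI), a drug that activates the nuclear receptor PPARγ. Nothing else was added for the 8 cHF+ROSI mice. For the 8 cHF+F+ROSI mice, 15% of the dietary lipids was replaced by a concentrate (F) of long-chain omega-3 fatty acids, called n-3 LC-PUFA below. All animals were fasted for 10 hours in the light phase, offered Chow diet from 18:00 and killed the next morning between 9:00 and 11:00. The hour at which each mouse was killed is not in the labels, and the methods house the mice in pairs without saying which shared a cage, so p-values assume that the mice were independent. RNA of each mouse was labelled with Cy5 and hybridised to its own two-color array against a common Cy3 reference pool. The labels describe the pool as holding all diets and a higher dose of rosiglitazone, while the methods mention that dose only for an earlier set of arrays, so its exact makeup here is not settled. Each value below is therefore log2(mouse/pool) at a probe, where 0 means equal signals of mouse and pool after normalization. The dyes were not swapped on any of the 16 arrays, so a probe's distance from 0 can hold an offset between the dyes. A difference is the mean of the cHF+F+ROSI mice minus that of the cHF+ROSI mice. The question that the comparison addresses is which transcripts differed when n-3 LC-PUFA was added to rosiglitazone.

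The clock of mammalian cells is a feedback loop. Arntl (BMAL1) and Clock form a dimer that binds E-box sequences and drives the Per and Cry genes, whose proteins return to the nucleus and repress the dimer. In a second loop, the dimer drives Nr1d1 and Nr1d2 (REV-ERBα and REV-ERBβ), which repress Arntl by competing with the ROR receptors for their response elements. Dbp, Tef and Hlf are activated through E-boxes and pass the rhythm on to genes with D-box sequences. In peripheral tissues of mice, Arntl and Dbp are known to peak at nearly opposite times of day. Feeding time and glucocorticoids are known to set the clocks of peripheral tissues, and Per1 is known to respond acutely to glucocorticoids and cAMP.

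Promoter sequences are shown for the 2 genes that differed most between the diets, Dbp and Arntl, and for 2 members whose promoter held an E-box, Per1 and Tef, since the loop described above runs through such sequences. RefSeq promoters, each with 250 bases before and 50 bases after a gene start in the build GRCm38.p6, were matched by symbol for 9 of the 10 members, with 14 windows in all, and Per2 was not among them. Capitals mark a match on either strand to the E-box CACGTG or to the ROR response element TAGGTCA.
Dbp, chr7:45704997-45705296, plus strand: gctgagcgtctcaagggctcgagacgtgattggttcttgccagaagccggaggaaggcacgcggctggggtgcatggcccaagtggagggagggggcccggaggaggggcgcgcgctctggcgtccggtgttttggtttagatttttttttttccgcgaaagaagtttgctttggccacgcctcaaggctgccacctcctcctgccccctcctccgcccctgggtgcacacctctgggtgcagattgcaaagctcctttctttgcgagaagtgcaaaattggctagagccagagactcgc
Arntl, chr7:113207261-113207560, plus strand: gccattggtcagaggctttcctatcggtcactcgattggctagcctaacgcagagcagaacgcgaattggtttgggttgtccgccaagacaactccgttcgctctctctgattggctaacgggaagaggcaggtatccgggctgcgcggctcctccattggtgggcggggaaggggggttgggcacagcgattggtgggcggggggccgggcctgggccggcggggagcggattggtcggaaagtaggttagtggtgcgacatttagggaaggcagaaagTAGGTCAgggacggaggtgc
Per1, chr11:69098699-69098998, plus strand: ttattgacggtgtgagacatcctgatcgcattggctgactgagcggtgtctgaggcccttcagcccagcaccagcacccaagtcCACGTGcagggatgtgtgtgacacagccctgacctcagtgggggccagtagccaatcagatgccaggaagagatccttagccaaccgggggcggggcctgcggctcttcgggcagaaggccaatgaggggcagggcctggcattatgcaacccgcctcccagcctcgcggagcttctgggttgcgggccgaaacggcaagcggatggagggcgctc
Tef, chr15:81811164-81811463, plus strand: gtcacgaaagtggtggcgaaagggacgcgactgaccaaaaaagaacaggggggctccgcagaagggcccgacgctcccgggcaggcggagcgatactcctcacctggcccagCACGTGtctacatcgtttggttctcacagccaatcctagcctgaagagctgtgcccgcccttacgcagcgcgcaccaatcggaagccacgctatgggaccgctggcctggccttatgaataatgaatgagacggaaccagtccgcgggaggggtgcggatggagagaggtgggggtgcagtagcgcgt
Of the 14 windows, 3 held the E-box, namely the window of Per1 shown, the window of Tef shown and another window of Tef. Among 32851 promoter windows of the same length, 2349 (7.15%) held it. The element TAGGTCA was found in the window of Arntl shown and in no window of another member, and 856 of the 32851 windows (2.61%) held it. The D-box TTATGTAA was in 0 of the 14 windows and in 308 of the 32851 (0.938%). No window of a member held both motifs. No match means only that these letters were not in the window: the window of Dbp, for example, ends 50 bases into the gene. The matches describe the sequence, and binding was not measured.

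The signal over background was even apart from a single array. On some arrays a few spots disturbed the background fit and were treated apart, as described in the section on processing. The median Cy5 signal over background was 2.33 for cHF+ROSI mouse 1 and between 2.98 and 3.64 for the other 15, and the deviations of all probes from their group mean had an SD of 0.32 for this mouse and of 0.12 to 0.26 for the others. The arrays lay on 4 slides, with 2 mice of each diet per slide. Within every slide the diets had fixed positions, so that array position and diet cannot be told apart. The labelled tissue was borne out by skeletal muscle markers: all 11 of 11 were kept, with a Cy5 signal between 6790 and 11900 times the background. Of 19398 probes kept after a filter on dim spots, 2007 (10.3%) differed between the diets in limma with an unadjusted p not above 0.05, with 1042 (5.37%) higher and 965 (4.97%) lower after n-3 LC-PUFA, and 16 (0.0825%) passed an adjusted p of 0.05. The arrays carried 20 probes of the members and 16 of them passed the filter. Of these 16, 2 passed the unadjusted limit, or 12.5%, which is close to the share of all probes, and 0 passed the adjusted limit.

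Dbp was higher and Arntl was lower in the muscle of the cHF+F+ROSI mice, and neither difference passed the adjustment over all probes. Dbp, the output factor, had log2 ratios of 0.03, 0.31, 0.72, 0.05, -0.23, -0.33, -0.05 and 0.41 in the cHF+ROSI mice 1 to 8. In the cHF+F+ROSI mice 1 to 8 its log2 ratios were 0.19, 0.79, 0.94, 0.64, 0.64, 0.64, 0.56 and 0.01. All 8 cHF+F+ROSI mice were above the pool, 6 of them between 0.56 and 0.94 and mice 1 and 8 well below these, and the groups overlapped, since 5 of the cHF+ROSI mice were above the pool and mouse 3 reached the level of those 6. The mean was 0.11 ± 0.35 (SD, n = 8) against 0.55 ± 0.31 (SD, n = 8), a log2 difference of 0.44 (SE 0.15, 95% interval 0.13 to 0.75) or 1.36-fold. The unadjusted p was 0.00839 in limma, the adjusted p was 0.293, and an exact permutation test over all 12870 splits of the mice gave a two-sided p of 0.0197. The probe, A_51_P180492, lies at chr7:45577937-45577996 in mm8 on the plus strand, and the files name its gene and not the exon or untranslated region.

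Arntl, the activator, had log2 ratios of -0.23, -0.14, -0.11, 0.23, 0.37, 0.06, -0.11 and -0.14 in the cHF+ROSI mice 1 to 8. In the cHF+F+ROSI mice 1 to 8 they were 0.15, -0.63, -0.78, -0.69, -0.85, -0.42, -0.57 and 0.40. The cHF+F+ROSI mice 2 to 7 were all below the lowest cHF+ROSI mouse, while mice 1 and 8, the same animals in which Dbp was low, lay within or above the range of the cHF+ROSI mice. The mean was -0.01 ± 0.21 (SD, n = 8) against -0.42 ± 0.45 (SD, n = 8), a log2 difference of -0.41 (SE 0.16, 95% interval -0.75 to -0.08). The unadjusted p was 0.0186 and the adjusted p 0.38 in limma, and the exact permutation test gave a two-sided p of 0.037. Its probe, A_52_P267651, lies at chr7:113104645-113104704 in mm8 on the plus strand.

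**Figure D1:**
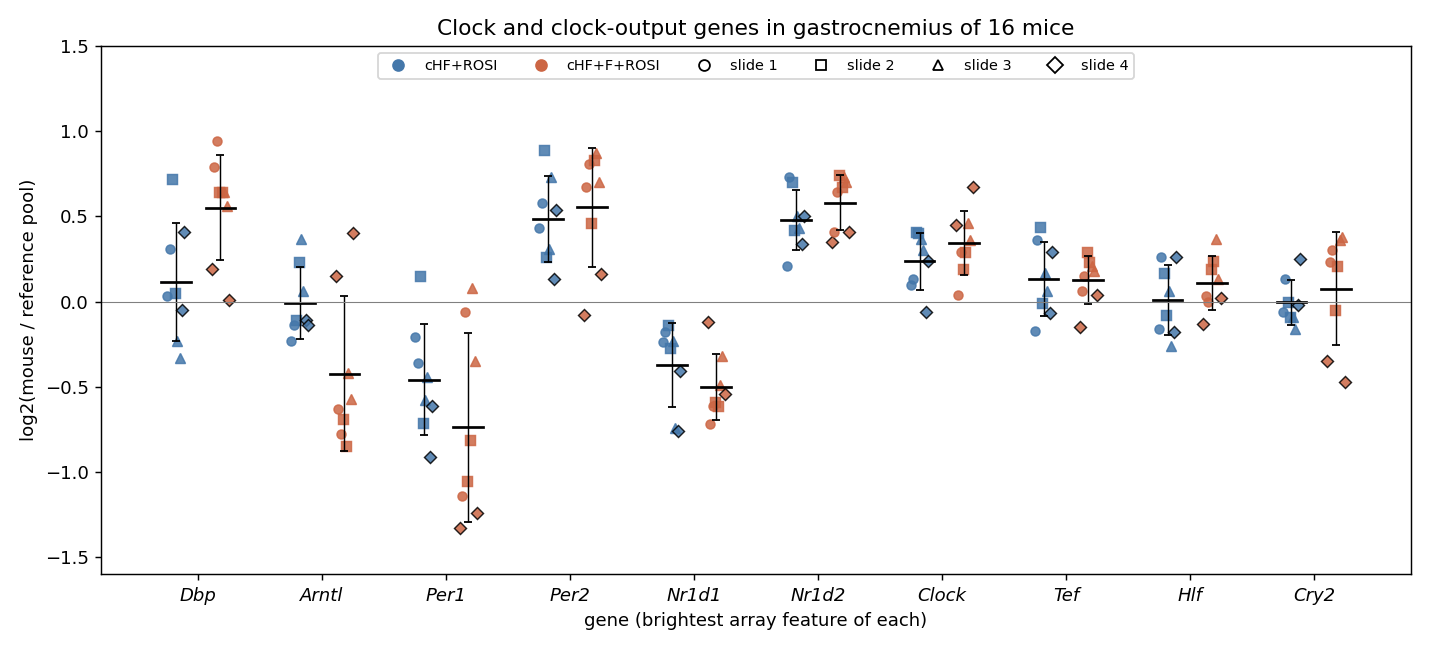
Log2(mouse/pool) of the brightest array feature of each of the 10 genes (vertical axis) in 8 cHF+ROSI (blue) and 8 cHF+F+ROSI (orange) mice, 1 point per mouse, with the marker giving the slide, a bar for the mean and a whisker for the SD. For Dbp and Arntl, the 2 cHF+F+ROSI mice of slide 4 (outlined diamonds) lie apart from the other 6 of their group, at 0.19 and 0.01 for Dbp and at 0.15 and 0.40 for Arntl.

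Both differences varied with the slide. The cHF+F+ROSI mice 1 and 8 shared slide 4 with the cHF+ROSI mice 7 and 8. Within slides 1, 2 and 3, with 2 mice against 2 and no test, Dbp was higher in the cHF+F+ROSI mice by 0.70, 0.26 and 0.88 on the log2 scale, and within slide 4 the difference was -0.08. For Arntl the differences within slides 1, 2 and 3 were -0.52, -0.83 and -0.71, and within slide 4 the difference was 0.40. Leaving out a slide was added after seeing the data, and the p-values without a slide, here and below, do not allow for that choice. Without slide 4 the log2 difference was 0.61 for Dbp (unadjusted p in limma 0.000994) and -0.68 for Arntl (1.37e-05). Without slide 3 it was 0.29 for Dbp (0.102), and without slide 2 it was -0.28 for Arntl (0.162). Without slide 1 it was 0.35 for Dbp (0.0595) and -0.38 for Arntl (0.0658), and without slide 3 it was -0.32 for Arntl (0.134). Slide 4 also stood apart for Cry2, with a difference of -0.52 against 0.23, 0.13 and 0.50 on slides 1, 2 and 3, and for Clock, with 0.47 against 0.05, -0.16 and 0.07. The labels do not say in which order the mice were killed or their RNA was prepared, so the part of such an order in these values was not tested.

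**Figure D2:**
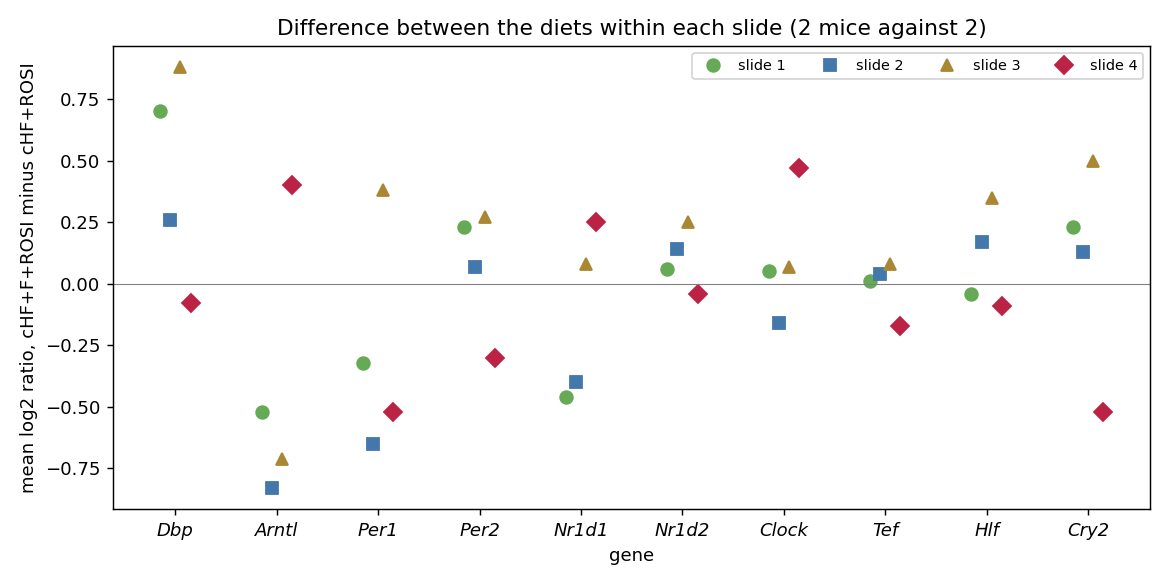
Mean log2 ratio of the 2 cHF+F+ROSI mice minus that of the 2 cHF+ROSI mice (vertical axis) within each of the 4 slides, for the 10 genes, with no test. Slides 1, 2 and 3 give positive values for Dbp and negative values for Arntl, and slide 4 gives -0.08 and 0.40.

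Over the 16 mice, Dbp was high where Arntl was low, less so between mice of the same diet and slide. Dbp minus Arntl, taken as a measure of clock phase and given with no test, was 0.26, 0.45, 0.83, -0.18, -0.60, -0.38, 0.06 and 0.55 in the cHF+ROSI mice 1 to 8, with a median of 0.16. In the cHF+F+ROSI mice 1 to 8 it was 0.04, 1.42, 1.72, 1.33, 1.49, 1.07, 1.13 and -0.38, with a median of 1.23. The cHF+F+ROSI mice 2 to 7 lay between 1.07 and 1.72 and above all other mice, of which the highest was cHF+ROSI mouse 3 with 0.83, while cHF+F+ROSI mice 1 and 8 fell into the range of the cHF+ROSI mice.

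Over the 16 mice the Pearson r of Dbp with Arntl was -0.80 (permutation p 0.00031, adjusted p over the 45 pairs of members 0.00461), and Spearman's rho was -0.73 (permutation p 0.0021, adjusted p 0.0157). Without the 2 mice farthest from the median of Dbp, r was -0.78. With group means removed it was -0.72, and with slide means removed it was -0.76. Within the 8 cHF+ROSI mice r was -0.52 and within the 8 cHF+F+ROSI mice it was -0.93, a value that rested on mice 1 and 8, since r was -0.38 over the 6 cHF+F+ROSI mice of the other slides. Over all 12 mice of slides 1 to 3 it was -0.82. When the mean of each diet within each slide was removed, so that only differences between mice of the same diet and slide remained, r was -0.46.

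**Figure D3:**
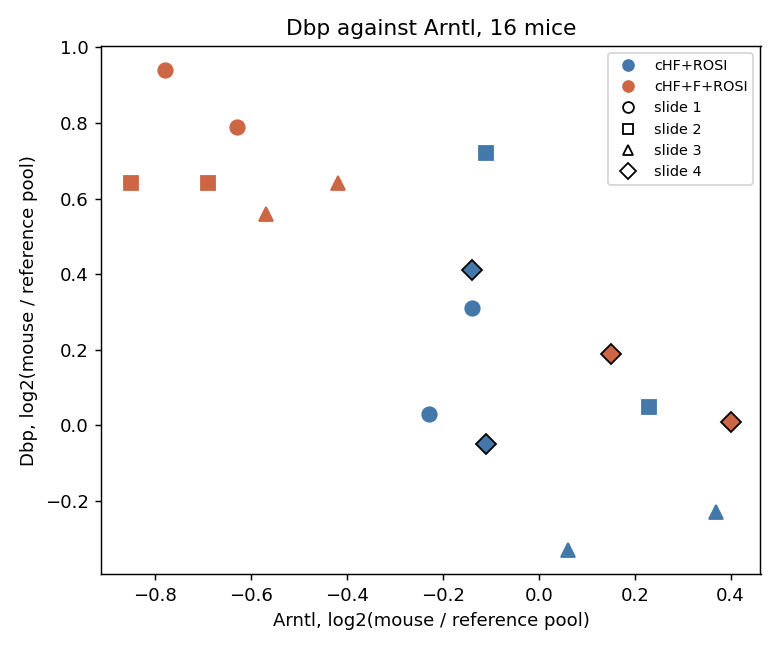
Dbp (vertical axis) against Arntl (horizontal axis), both as log2(mouse/pool), for the 16 mice, with color for the diet and marker for the slide. The cHF+F+ROSI mice of slides 1 to 3 lie at the upper left with Arntl between -0.85 and -0.42, and the 2 of slide 4 lie at the lower right, with Arntl at 0.15 and 0.40.

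Of the repressors, none differed between the diets at an unadjusted p of 0.05, and Per1 and Cry2 had a wider spread in the cHF+F+ROSI mice. Per1 ran between -0.91 and 0.15 with a median of -0.51 in the cHF+ROSI mice and between -1.33 and 0.08 with a median of -0.93 in those with n-3 LC-PUFA, and 1 mouse of each group lay above the pool. The log2 difference of -0.28 (SE 0.20, unadjusted p in limma 0.19) was smaller than the SD of 0.55 among the cHF+F+ROSI mice, and the exact permutation p was 0.238. Without slide 3 it was -0.50 with an unadjusted p of 0.0366 in limma. With slide 1, 2 or 4 left out instead, it was -0.26, -0.15 and -0.20 (unadjusted p 0.271, 0.533 and 0.375). The lowest Per1 values, -1.33 and -1.24, were again those of cHF+F+ROSI mice 1 and 8. At its brightest probe Per2 was above the pool in 15 of 16 mice. It ran between 0.13 and 0.89 (median 0.48) in the cHF+ROSI mice and between -0.08 and 0.87 (median 0.68) in those with n-3 LC-PUFA, with a log2 difference of 0.07 (SE 0.14, unadjusted p 0.628). The lowest value at this probe was that of cHF+F+ROSI mouse 1. The dimmer kept Per2 probe had medians of -0.06 in the cHF+ROSI and -0.10 in the cHF+F+ROSI mice. Cry2 had log2 ratios between -0.16 and 0.25 in the cHF+ROSI mice. In the cHF+F+ROSI mice 1 to 8 they were -0.35, 0.23, 0.30, -0.05, 0.21, 0.36, 0.38 and -0.47, so that mice 1 and 8 were the lowest of all 16. The log2 difference of Cry2 was 0.08 (SE 0.12, unadjusted p 0.489), and without slide 4 it was 0.28 with an unadjusted p of 0.00224 in limma. With slide 1, 2 or 3 left out instead, it was 0.03, 0.07 and -0.06 (unadjusted p 0.816, 0.662 and 0.667).

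The nuclear receptors and Clock differed by no more than 0.13 on the log2 scale between the diets. Nr1d1 was below the pool in all 16 mice, between -0.76 and -0.14 (median -0.25) in the cHF+ROSI mice and between -0.72 and -0.12 (median -0.57) in those with n-3 LC-PUFA. Its log2 difference was -0.13 at both kept probes, with unadjusted p of 0.219 at the brighter and 0.0874 at the dimmer probe in limma. Without slide 4 these were -0.26 (unadjusted p 0.0198) and -0.19 (unadjusted p 0.0253). With slide 1, 2 or 3 left out instead, the brighter probe had -0.02, -0.04 and -0.20 (unadjusted p 0.855, 0.741 and 0.107). The dimmer probe then had -0.05, -0.13 and -0.14 (unadjusted p 0.477, 0.167 and 0.137). Nr1d2 was above the pool in all 16 mice, from 0.21 to 0.73 (median 0.46) and from 0.35 to 0.74 (median 0.66), with a log2 difference of 0.10 (SE 0.08, unadjusted p 0.218). The brightest probes of the 2 receptors thus lay on opposite sides of the pool, and over the mice their r was 0.04. Which side a gene takes can depend on the probe. For Tef, the brightest kept probe had medians of 0.12 in the cHF+ROSI and 0.17 in the cHF+F+ROSI mice. Another kept Tef probe had -0.25 and -0.21. Opposite sides are therefore not read as opposite levels of the receptors. Clock had a median of 0.27 in the cHF+ROSI mice and 0.33 in the cHF+F+ROSI mice at its brightest probe, with a log2 difference of 0.11 (SE 0.08, unadjusted p 0.226).

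At their kept probes Tef and Hlf, the other PAR bZIP factors, did not differ between the diets by the unadjusted limit. A Tef probe outside the filter, described below, had a log2 difference of 0.21. Tef ran between -0.17 and 0.44 (median 0.12) in the cHF+ROSI mice and between -0.15 and 0.29 (median 0.17) in those with n-3 LC-PUFA, with a log2 difference of -0.01 (95% interval -0.19 to 0.18). Hlf ran from -0.26 to 0.26 (median -0.01) and from -0.13 to 0.37 (median 0.08), with a log2 difference of 0.10 (95% interval -0.09 to 0.28). Whether these differences are smaller than that of Dbp was not tested.

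**Figure D4:**
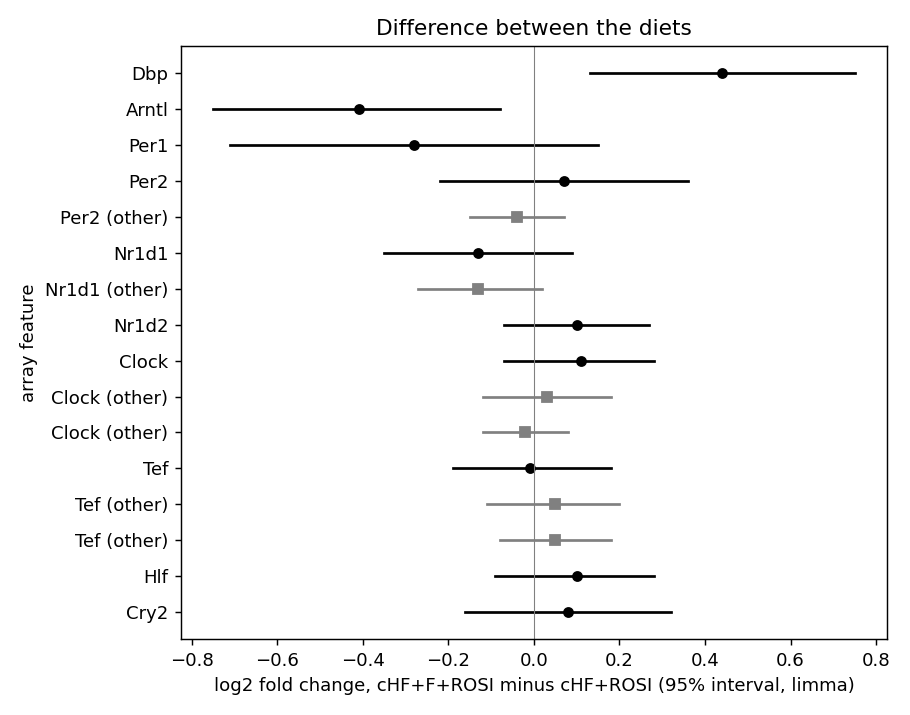
Log2 difference of the cHF+F+ROSI mice minus the cHF+ROSI mice with its 95% interval from limma (horizontal axis) for the 16 kept array features of the 10 genes, with circles for the brightest of each gene and grey squares for the others. Only the intervals of Dbp, 0.13 to 0.75, and Arntl, -0.75 to -0.08, leave out 0.

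Probes of the same gene did not always move together. Both kept probes of Nr1d1 had an r of 0.78 over the 16 mice, the brightest and the second Clock probe 0.76, and the 3 kept probes of Tef between 0.53 and 0.87. The 2 kept probes of Per2 had an r of -0.09. The dimmer of them, with a Cy5 signal of 3.75 and a Cy3 signal of 2.20 times the background, had a within-group SD of 0.09, against 0.30 for the brighter, and gave a log2 difference of -0.04. Similarly, the third kept Clock probe, annotated to another transcript, had a Cy5 signal of 2.99 times the background and a log2 difference of -0.02. Of the 4 member probes that did not pass the filter, those of Nr1d1 and Cry2 had log2 differences of -0.02 and 0.01 in the fit without the filter. The Tef probe outside the filter, annotated to another transcript, had a log2 difference of 0.21 (SE 0.09, unadjusted p 0.0254, adjusted p 0.563 in limma). Its Cy3 signal was 1.91 times the background, just under the limit of 2, and its Cy5 signal was 4.7 times. Its values in cHF+F+ROSI mice 1 and 8, 0.02 and 0.21, were the lowest of their group. The Clock probe outside the filter was not well above background on any array in either channel, so no value is read from it.

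At their brightest probes, several clock genes varied more among mice of the same diet than most probes did, with differences between slides included. The within-group SD was 0.33 for Dbp, 0.35 for Arntl, 0.45 for Per1 and 0.30 for Per2, at the percentiles 94.6, 95.5, 97.7 and 93.3 of all kept probes, whose median was 0.13. The dimmer kept Per2 probe had 0.09, at the percentile 13.8. Cry2 had 0.25 and Nr1d1 0.22. Clock, Tef, Hlf and Nr1d2 were steadier, with 0.17 to 0.18. Over the 16 arrays the Cy5 channel of Dbp, Arntl and Per1 had an SD of 0.49, 0.52 and 0.49 on the log2 scale, and the Cy3 channel with the common pool had an SD of 0.09, 0.07 and 0.08. For Nr1d1 the Cy3 SD was 0.24, the highest of the members, beside a Cy5 SD of 0.46.

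Among the 45 pairs of members, 14 had an adjusted permutation p of up to 0.05 for Pearson's r over the 16 mice. Of these, 11 were positive and 3 negative, and 11 of the 14 also passed with Spearman's rho. The permutations mixed all 16 mice, so differences between diets and between slides also count towards these p-values. All 3 negative pairs held Arntl, which ran against Dbp, Cry2 (r -0.74, adjusted p 0.00915) and Per2 (r -0.64, adjusted p 0.0345). Arntl and Clock, the partners of the activating dimer, had an r of 0.41 (adjusted p 0.218). It was 0.70 with group means removed, 0.32 with slide means removed, 0.30 without slide 4 and 0.09 with the mean of each diet within each slide removed.

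The closest group was Nr1d2, Tef and Hlf. The r of Nr1d2 with Tef was 0.87 (permutation p 1e-05, the smallest that the resamples can give, adjusted p 0.00045), that of Tef with Hlf was 0.80 (adjusted p 0.00461) and that of Nr1d2 with Hlf was 0.80 (adjusted p 0.00461). Within the diets these r were 0.95, 0.86 and 0.77 in the cHF+ROSI mice and 0.92, 0.82 and 0.80 in the cHF+F+ROSI mice. With the mean of each diet within each slide removed they were 0.92, 0.86 and 0.73, whereas the pairs of Arntl with Dbp and with Cry2 fell to -0.46 and -0.32. Cry2 went with Per2 (r 0.73, adjusted p 0.00915), with r of 0.16 in the cHF+ROSI mice and 0.93 in the cHF+F+ROSI mice. It also went with Dbp (r 0.66, adjusted p 0.0271). Per1 and Per2 had an r of 0.70 (adjusted p 0.0197), which was 0.54 without the 2 mice farthest from the median of Per1. Over the 16 mice Nr1d1 had no r beyond 0.40 with any other member. With the mean of each diet within each slide removed, it had 0.55 with Dbp and 0.57 with Cry2. Its r with Dbp was 0.54 in the cHF+ROSI mice and -0.55 in the cHF+F+ROSI mice. Differences between the diets in these r were not tested.

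**Figure D5:**
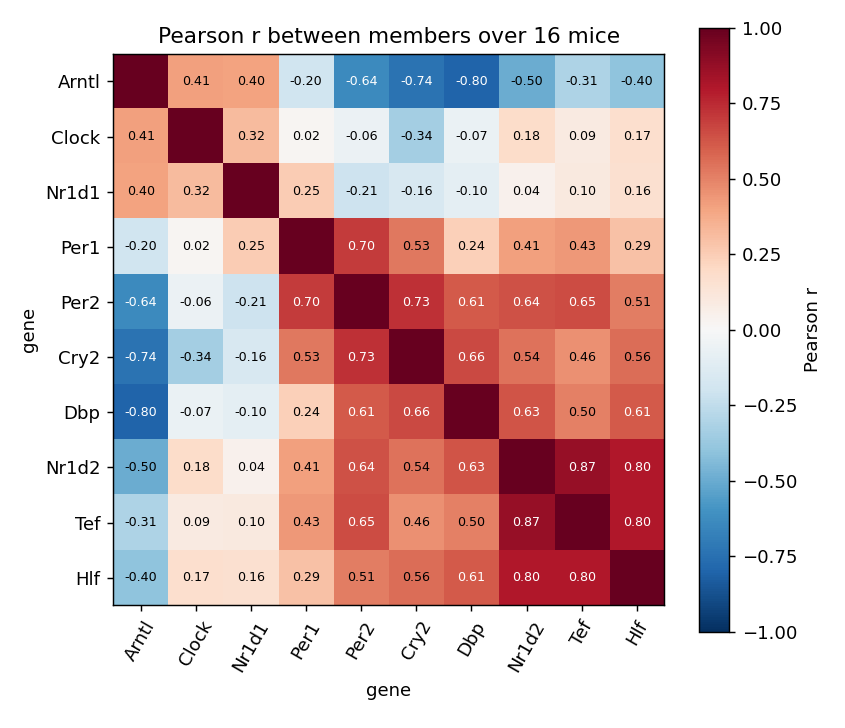
Pearson r over 16 mice between the 10 genes, the brightest array feature of each, with red for positive and blue for negative values. Nr1d2, Tef and Hlf form a block of 0.80 to 0.87, and Arntl has negative values with Dbp (-0.80), Cry2 (-0.74) and Per2 (-0.64).

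Among the 19295 other probes with a value on every array, several members lay near an end of likeness to Dbp. Likeness was the Pearson r over the 16 mice with group means removed, given as a description. Arntl was the 63rd lowest with -0.72, Cry2 the 53rd highest with 0.70, Per2 the 98th highest with 0.67 and Tef the 164th highest with 0.64. Hlf (0.58), Nr1d2 (0.58) and Per1 (0.55) had the ranks 364, 382 and 513 from the highest. Nr1d1, with 0.10, stood at rank 7393, and Clock, with -0.32, at rank 16730. The 10 most like Dbp were 9030607L17Rik (0.86), Ctdspl2 (0.86), Gprc5b (0.84), Pfkfb3 (0.84), NAP065150-1 (0.83), Qars (0.81), Ghr (0.80), EG639396 (0.80), Ccni (0.79) and Zfp263 (0.79), in the array's own names. Pfkfb3 makes fructose 2,6-bisphosphate, an activator of glycolysis, Ghr is the growth hormone receptor and Qars charges the glutamine tRNA. The 10 least like it were Bxdc2 (-0.93), St3gal5 (-0.88), Crem (-0.83), Mrpl45 (-0.82), Plch2 (-0.82), Atpaf2 (-0.82), Ggta1 (-0.81), Slmo2 (-0.81), Rad1 (-0.80) and A130022J15Rik (-0.80). Crem encodes repressors and activators of cAMP-responsive genes.

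With Arntl, Cry2 was the 20th lowest of the 19295 probes (-0.78), and Clock was the 130th highest (0.70). These ranks remove group means only. With the mean of each diet within each slide removed, the r of Arntl was -0.32 with Cry2, 0.09 with Clock and -0.46 with Dbp. The 5 most like Arntl were Prkcd (0.92), a protein kinase C, Slc38a4 (0.87), an amino acid transporter, Ccdc134 (0.87), TC1602638 (0.87) and Cdc5l (0.87). The 5 least like it were Cys1 (-0.88), Tspan4 (-0.86), Pik3ip1 (-0.84), a negative regulator of PI3-kinase, Pole (-0.83) and Plcd3 (-0.83). Of these probes, TC1602638, Plcd3, Crem and NAP065150-1 differed between the diets by the unadjusted limit in limma, with log2 differences of -0.14, -0.25, -0.19 and 0.33, and 0 of them passed the adjusted limit.

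Of 9 other core clock genes that were kept, 1 was lower in the cHF+F+ROSI mice by the unadjusted limit (all probes: 4.97% lower and 5.37% higher) and 0 were higher, which is near the share of all probes, and their median log2 difference was 0.04, against 0.002 over all probes. The lower gene was Bhlhb2 (Bhlhe40, DEC1), a repressor that binds E-boxes. Its log2 ratios ran between -0.12 and 0.57 (median 0.22) in the cHF+ROSI mice and between -0.33 and 0.15 (median -0.03) in those with n-3 LC-PUFA, a difference of -0.31 (SE 0.10, unadjusted p 0.00437, adjusted p 0.233). Among the other core clock genes, the differences were 0.18 for Gm129 (Ciart), 0.13 for Rora, -0.12 for Bhlhb3 and 0.11 for Nfil3, a repressor at D-boxes, and none of these passed. Npas2, Per3 and Arntl2 did not pass the filter on dim spots.

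Of 10 kept kinases and ubiquitin ligases that act on clock proteins, 1 was lower and 0 were higher by that limit, near the 10.3% of all probes in either direction, with a median of -0.05. The lower gene was Fbxw7, a substrate receptor of ubiquitin ligases, with a difference of -0.36 (SE 0.10, unadjusted p 0.00236, adjusted p 0.204), and Csnk1e (-0.21), Prkaa1 (-0.09) and Fbxw11 (0.09) did not pass. Of 11 kept clock-controlled genes, 2 were higher and 1 was lower, against 5.37% and 4.97% of all probes, with a median of 0.09. Alas1, the first enzyme of heme synthesis, was higher by 0.30 (SE 0.09, unadjusted p 0.00459) and Pbef1 (Nampt), an enzyme of NAD synthesis, by 0.15 (SE 0.07, unadjusted p 0.049). Klf10 was lower with a difference of -0.46 (SE 0.13, unadjusted p 0.00281, adjusted p 0.211 in limma). Cdkn1a (-0.28), Myod1 (-0.17), Leo1 (0.17) and Por (0.13) did not pass.

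Signals that are known to reach the muscle clock were read from lists of responsive genes. Over all probes, 10.3% passed the unadjusted limit in either direction, and the median log2 difference was 0.002. Of 12 kept glucocorticoid-responsive genes, 0 passed an unadjusted p of 0.05 in limma, with differences of -0.78 for Ddit4, -0.41 for Cebpd, 0.37 for Fkbp5 and 0.31 for Mt1 as the largest, and the median was 0.03. Their mean log2 ratio lay between -0.66 and 0.03 without and between -0.93 and 0.38 with n-3 LC-PUFA. In cHF+F+ROSI mice 1 and 8 it was -0.93 and -0.40. The 0.38 was that of mouse 6. A relation of Per1 to this list was not tested. Of 8 kept temperature-responsive genes, 0 passed, with -0.74 for Hspa1a, -0.47 for Dnajb1, -0.25 for Hspb1 and -0.11 for Hsp90aa1 as the largest and a median of -0.10. The medians of Hspa1a were 0.72 in the cHF+ROSI and -0.77 in the cHF+F+ROSI mice, of which the highest had 3.85, and the highest cHF+F+ROSI value of Dnajb1 was 2.35. The list mean was 0.93 in cHF+F+ROSI mouse 2 and no higher than 0.05 in the other 7. Of 10 kept immediate early genes, 1 passed, near the share of all probes: Jun was lower with a difference of -0.34 (unadjusted p 0.0266). Atf3 (-0.88), Fos (-0.30), Btg2 (-0.28) and Junb (-0.22) did not pass, 8 of the 10 had a negative sign, and the median was -0.21. The mean log2 ratio of the immediate early genes lay between -0.14 and 1.14 without and between -0.25 and 1.18 with n-3 LC-PUFA, and for cHF+F+ROSI mice 1 and 8 it was -0.11 and -0.09.

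Markers of other cells could move with the members, since in bulk tissue fewer cells of a type and less RNA per cell cannot be told apart. By the unadjusted limit in limma, all 5 of 5 endothelial markers were lower with n-3 LC-PUFA (all probes: 4.97% lower and 5.37% higher). The differences were -0.28 for Kdr, -0.24 for Emcn, -0.19 for Cdh5, -0.14 for Pecam1 and -0.10 for Tek. Of these endothelial markers, 0 passed the adjusted limit. Their mean log2 ratio ran between -0.25 and -0.01 in the cHF+ROSI mice and between -0.39 and -0.09 in those with n-3 LC-PUFA. It was -0.19 and -0.35 in cHF+F+ROSI mice 1 and 8, within the range of the other 6 mice of their group. Over the 16 mice, which include both diets, the r of this mean with Dbp minus Arntl was -0.53, given as a description. Of 8 slow fibre markers 7 had a negative sign and 0 passed, with a mean from -1.22 to 0.68 against -2.22 to 0.29. The mean per mouse of the 7 adipocyte markers ran from -1.02 to 0.41 against -1.40 to 1.00. That of the 3 red blood cell markers ran from -0.78 to -0.17 against -0.74 to 1.19. For the 5 macrophage markers this mean ran from -0.34 to 0.54 against -0.35 to 0.23. In these 3 lists 0 markers passed. Adipoq, Hbb-b1 and Cd68, a marker from each of the last 3 lists, had Cy5 signals of 172.0, 2640 and 4.81 times the background. Cd68 was the dimmest of the macrophage markers. The part of these cells in the differences of Dbp and Arntl was not tested.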

How the data were processed

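Gastrocnemius RNA of 16 mice, 8 per diet, was measured on 1 two-color array each. The authors deposited spot intensities of both channels from Feature Extraction 10.5.1.1, and a table of log2 values that they had normalized, used here as an alternative only, whose columns name the cHF+F+ROSI mice by group and not by mouse.

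The median signals went through normexp (offset 50). On 5 arrays a few spots with a local background far above their signal, at most 21 on an array, put the fitted background mean far below 0. Spots with a background over 20 units above their signal were therefore given the array's median background in the fit and left out of that array. Control and outlier spots were removed, as were spots whose mean signal was under 2 times the background in either channel. Ratios (log2 Cy5/Cy3) were loess-normalized per array and averaged per probe, and limma 3.58.1 (R 4.3.3) compared the diets with Benjamini-Hochberg adjustment over 19398 probes. Each gene is given by its brightest kept probe. Correlations were tested by two-sided permutation with 100000 resamples, or with all orderings within a diet, and adjusted over 45 pairs. The offset makes fold changes of dim probes smaller, and the number of arrays limits precision. No 2 arrays held identical ratios, and the fit was tested on simulated data. Named genes were all member probes, list genes by the unadjusted limit with up to 4 others of the largest difference, and the probes most and least like Dbp and Arntl, and 1 list gene among these is not reported here. Members and lists were chosen with earlier results of these data known. Alternatives covered the background, normalization, reference channel, the authors' table, filter, slide and replicate blocks, array weights, the methods' t-test and each array left out. The treatment of spots, each slide left out and each diet alone were added after seeing the data.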

Additional observations from a re-analysis of the deposited data

How the results depend on the processing

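Under the 12 other settings of processing and test and with each mouse left out, the log2 difference of Dbp stayed between 0.38 and 0.54 and that of Arntl between -0.56 and -0.35, both with an unadjusted p of up to 0.05. With each slide left out, Dbp had 0.29 to 0.61, with a p over 0.05 without slide 1 (0.35) and slide 3 (0.29), and Arntl had -0.68 to -0.28, with a p over 0.05 without slide 1 (-0.38), slide 2 (-0.28) and slide 3 (-0.32). The r of Dbp with Arntl had an adjusted p of up to 0.05 in 12 of 14 settings and with each slide left out. With the mean of each diet within each slide removed it was -0.46, and over the 6 cHF+F+ROSI mice of slides 1 to 3 it was -0.38, both without a p. In each diet alone it was -0.52 in the cHF+ROSI mice (adjusted p 0.428) and -0.93 in the cHF+F+ROSI mice (adjusted p 0.0696). With a mouse left out it was from -0.86 to -0.77. Probes at an adjusted p of 0.05 numbered 16, and 9 with median centring, 8 with the Cy5 channel alone, 10 in the authors' table, 143 with array weights, 7 by the methods' t-test (1981 at an unadjusted p of 0.05), 3 with every local background as deposited, and 4, 2, 4 and 7 without slides 1 to 4, and from 5 to 24 with a mouse left out. Without the filter on dim probes 3235 probes passed the unadjusted limit. Member probes at that limit numbered 2, and 0, 1, 1 and 5 without slides 1 to 4. Between samples with the same replicate number, the deviations from the group means had r from -0.263 to 0.338. These r cannot show whether the numbers pair mice. With the replicate number as a block, 6 probes passed the adjusted limit and 1691 the unadjusted limit, among them 3 member probes.

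The cause of these changes was not tested. Values near 0 changed sign in some settings, with no p of up to 0.05. The brightest Tef probe had -0.01, and 0.03 with processed signals, 0.04 with median centring, 0.02 with the Cy5 channel alone, 0.06 in the authors' table, 0.04 without slide 4 and from -0.05 to 0.04 with a mouse left out. The other Tef probes had -0.03 without slide 2, and -0.07 with median centring, -0.10 with Cy5 alone and -0.08 in the authors' table. The dimmer Per2 probe had 0.00 without background correction and with array weights and 0.03 without slide 1. Clock had -0.01 and -0.06 without slide 4, 0.10 with Cy5 alone and 0.01 without slide 3 at its dimmest kept probe, and 0.00 to 0.06 at its second with a mouse left out. Cry2 had -0.06 without slide 3. Dim probes are limited by the Cy3 signal over background.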
